A study of Caenorhabditis elegans with 2 samples.

Results

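The Hedgehog-related and patched-related genes of Caenorhabditis elegans were examined for recovery of CEH-16, the worm engrailed-class homeodomain transcription factor. Members were the protein-coding genes of the WBcel235 annotation whose symbols belong to the groundhog (grd), ground-like (grl), warthog (wrt), patched-related (ptr) or patched (ptc) series, together with hog-1 and qua-1. The rule gave 85 of 19973 protein-coding genes: 16 grd, 31 grl, 10 wrt, 24 ptr and 2 ptc genes, hog-1 and qua-1. Chromatin immunoprecipitation followed by sequencing (ChIP-seq) was made from whole larvae of the L2 stage, with both sexes pooled. Both samples are of strain OP82, genotype unc-119(tm4063) III; wgIs82, in which the wgIs82 insertion carries ceh-16 tagged with eGFP, and they are the 2 biological replicates, numbered 1 and 2, of a single group. The labels name ceh-16 as the antibody target in one field and the eGFP fusion in another, so whether untagged CEH-16 could also be recovered is not known. The samples used here hold no other factor, stage or strain to compare with. Neither an untagged strain nor the possible control library was analysed here, and whether the same DNA is recovered when no protein is tagged was not tested. The labels do not give the sequences that drive the transgene, and the strain's own ceh-16 locus is not described as altered. Because whole animals were used, cell types cannot be told apart, and peak lists hold no expression values against which a tissue could be checked.

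Worms have no clear counterpart of Hedgehog itself. They have large families of secreted proteins in which a Ground, Ground-like, Wart, Qua or related domain takes the place of the Hedgehog signalling domain, and some of them also carry an autoprocessing Hog domain like that of Hedgehog. Patched is the Hedgehog receptor in flies and vertebrates, and the worm ptc and ptr genes encode relatives of it with a sterol-sensing domain. Many of these genes act in the epidermis, in molting and in the matrix of the apical surface. CEH-16 acts in the seam cells, the stem-like cells of the lateral epidermis, where it keeps them from fusing with their neighbours.

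Of the 4 peak lists on ce11, the strictest is the optimal list thresholded by the irreproducible discovery rate (IDR), which compares ranks between replicates and held 1358 peaks. The 3 relaxed lists are a pooled list of 30000 intervals, a replicate 1 list of 28214 and a replicate 2 list of 30000, and they hold weak intervals and background by construction. Each interval has a signal, the enrichment value of the authors' peak caller, with a median of 33.5 in the IDR list (from 23.2 to 190.0) and 6.05 in the pooled list. The pooled and replicate lists were called separately. Where their signals stand side by side, differences in size between the lists were not interpreted. Read depth is unknown because the lists give no counts. A gene was counted for a list when it had a transcript whose annotated 5′ end was no more than 2000 bp from a summit, so 1 summit can count for several genes. The strongest 1358 intervals of a relaxed list, matching the IDR list in number, are called its top intervals. They begin at 25.1 in the pooled list, 13.6 in replicate 1 and 13.3 in replicate 2. The labels name the samples as biological replicates, and with 2 of them the values of both are given and no test was made. Intervals on shares are 95% Wilson intervals and cover counting error only.

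IDR summits lay within 168 bp of the 5′ ends of 5 ligand-like genes. The sequences just upstream of 4 of them are shown, because an IDR summit lay at the start of each. The 4 are the groundhog cluster of grd-13, grd-3 and grd-10, and wrt-10, whose summits were the nearest to a 5′ end among the members. Each is the stretch of the IDR interval that lies upstream of the gene, read 5′ to 3′ on the gene's strand from the WBcel235 genome, at IV:3438064-3438311, IV:3439508-3439654 and IV:3440881-3441054 on the forward strand and at II:7534564-7534712 on the reverse strand. For grd-3 only the gap behind grd-13 is shown, and the bases of its interval that lie inside grd-13 are left out. Capitals mark the summit and the 10 bases to each side, cut at the 5′ end in wrt-10.
grd-13: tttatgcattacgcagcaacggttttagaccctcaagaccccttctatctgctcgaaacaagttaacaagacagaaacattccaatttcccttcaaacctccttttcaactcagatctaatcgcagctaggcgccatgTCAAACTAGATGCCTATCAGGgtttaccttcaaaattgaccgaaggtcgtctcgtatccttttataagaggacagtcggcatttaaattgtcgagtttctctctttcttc
grd-3: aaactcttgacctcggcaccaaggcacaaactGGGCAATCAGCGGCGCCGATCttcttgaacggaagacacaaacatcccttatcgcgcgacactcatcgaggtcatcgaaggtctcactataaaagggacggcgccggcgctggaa
grd-10: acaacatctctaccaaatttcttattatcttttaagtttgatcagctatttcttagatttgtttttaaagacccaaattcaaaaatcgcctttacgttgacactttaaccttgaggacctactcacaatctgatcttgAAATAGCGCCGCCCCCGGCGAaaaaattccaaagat
wrt-10: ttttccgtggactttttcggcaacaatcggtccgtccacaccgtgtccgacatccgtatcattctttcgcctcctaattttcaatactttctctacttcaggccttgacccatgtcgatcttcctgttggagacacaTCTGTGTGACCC

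An IDR summit lay within 2000 bp of 8 of the 85 members (9.41%, interval 4.85 to 17.5%). Over all protein-coding genes the share was 6.81%. The 8 members were grd-13, grd-3, grd-10, wrt-3, wrt-5, wrt-10, grl-10 and ptr-23. The interval for the members includes the share for all genes, so at this number of genes no difference was detectable. When a summit was given only to the gene that owned the nearest 5′ end, 6 members (7.06%, interval 3.28 to 14.6%) remained, against 4.41% of all genes, and wrt-5 and grl-10 dropped out. Within 500 bp there were 5 members (5.88%), against 3.62% of all genes. The IDR members' signals ran from 25.0 to 56.1 over 9 peaks.

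The share of genes with an IDR summit ranged from 0 of 2 in the ptc family to 3 of 10 in the wrt family, with wide intervals. Among the ligand-like families it was 3 of 10 wrt genes (30%, interval 10.8 to 60.3%), 3 of 16 grd genes (18.8%, 6.59 to 43.0%) and 1 of 31 grl genes (3.23%, 0.572 to 16.2%). Neither hog-1, which encodes a Hog-domain protein, nor qua-1, the quahog gene that acts in molting, had one. Among the receptor-like families it was 1 of 24 ptr genes (4.17%, 0.739 to 20.2%) and 0 of 2 ptc genes (Wilson upper bound 65.8%). The intervals of the 5 families overlap one another. Only that of wrt lies wholly above 6.81%, and with the nearest-gene rule its 2 of 10 genes gave 20% with an interval from 5.67 to 51.0%, which includes the 4.41% of all genes.

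**Figure D1:**
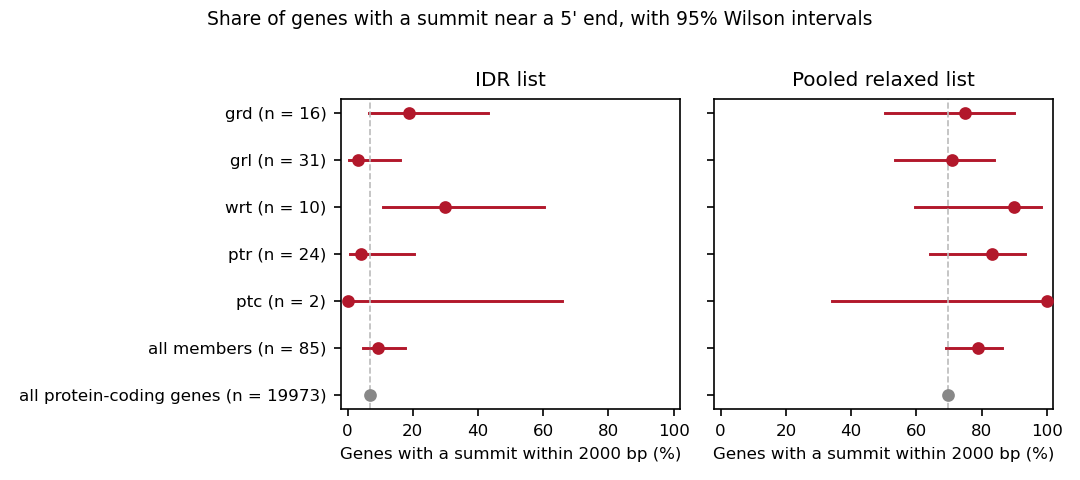
Share of genes with a summit within 2000 bp of a 5′ end in the IDR list (left) and the pooled relaxed list (right), in percent, for 5 families, all 85 members and all 19973 protein-coding genes; bars are 95% Wilson intervals and the dashed line is the share over all protein-coding genes. The wrt and grd points lie to the right of the line in the IDR panel and the grl, ptr and ptc points to the left of it, with intervals that overlap between families.

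The clustered grd genes lie head to tail on the forward strand of chromosome IV, within 3530 bp at IV:3438312-3441841, and each had its own IDR peak at its 5′ end. The first gene, grd-13 (WBGene00001702), occupies 3438312 to 3439507, grd-3 (WBGene00001692) follows after a gap of 147 bp at 3439655 to 3440453, and grd-10 (WBGene00001699) after a further gap of 601 bp at 3441055 to 3441841. All 3 encode proteins with a Ground domain. The grd-13 peak, at IV:3438064-3438359, had a signal of 55.3 and ranked 203 of 1358. Its summit was 100 bp upstream of the 5′ end, in intergenic sequence, and its signal was 27.4 in replicate 1 (rank 312) and 25.8 in replicate 2 (rank 321). The grd-3 peak, at IV:3439402-3439697, had 43.9 and ranked 379, with its summit 105 bp upstream in the gap behind grd-13. It had 24.4 in replicate 1 (rank 422) and 17.9 in replicate 2 (rank 770). The grd-10 peak, at IV:3440881-3441176, had 42.3 and ranked 407, with its summit 26 bp upstream. It had 21.5 in replicate 1 (rank 565) and 19.3 in replicate 2 (rank 639).

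All 3 peaks were thus above the top thresholds of 13.6 and 13.3 in both replicates, and the summits of the replicates lay within 12 bp of the IDR summits. Between and around the 3 peaks, out to 2000 bp beyond the outer genes, the other intervals were far weaker. The pooled list held 4 others with signals from 4.28 to 9.34, replicate 1 held 5 from 2.54 to 7.19 and replicate 2 held 6 from 2.29 to 9.53. Because the genes are close together, each of the 3 also has a neighbour's summit within 2000 bp: the grd-13 summit is 1443 bp upstream of grd-3, and the grd-3 summit is 1505 bp upstream of grd-10 and 1238 bp downstream of the grd-13 5′ end. Of the 85 members, these 3 were the only ones counted in all of 8 settings, which varied the window, the gene assignment, the signal threshold and the list.

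**Figure D2:**
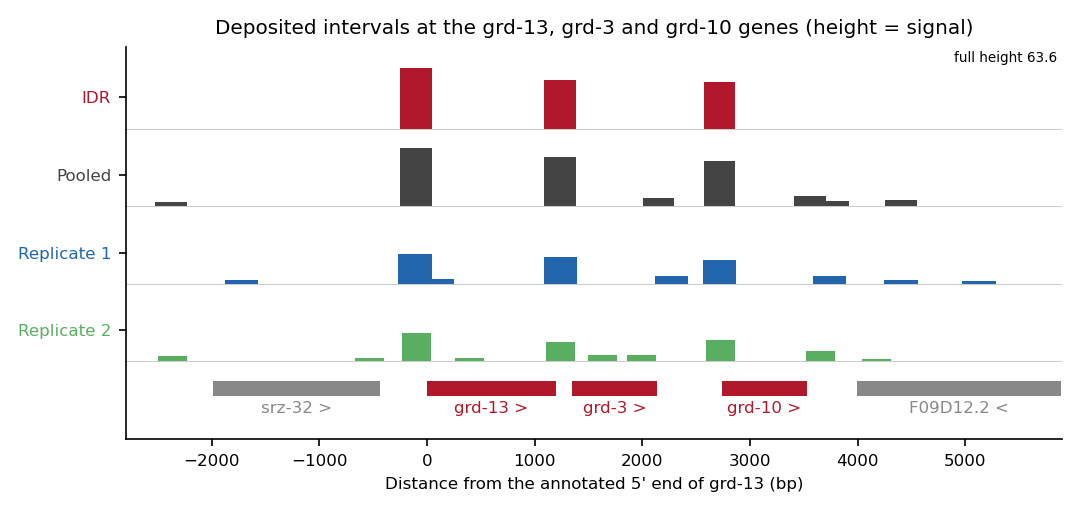
Intervals of the IDR, pooled, replicate 1 and replicate 2 lists at the grd-13, grd-3 and grd-10 genes, drawn by distance from the annotated 5′ end of grd-13 in bp, with box height proportional to signal on one scale for all rows; gene boxes carry > or < for strand, with the 3 grd genes in red. Each of the 3 gene starts has 1 tall box in every list, with IDR signals of 55.3, 43.9 and 42.3, and the other boxes in the window reach at most 9.53.

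The 3 intervals are different sequences and not copies of one another. In pairwise global alignments of the whole intervals, identity was 49.0% for grd-13 and grd-3, 48.9% for grd-13 and grd-10 and 53.8% for grd-3 and grd-10. The longest exact run shared by a pair was 8, 7 and 9 bases in the same order. Every 31-base word of the 9 member peaks occurs once in the genome. The GC content of the intervals was 41.2% at grd-13, 46.6% at grd-3, 38.5% at grd-10 and 45.9% at wrt-10, against a median of 42.6% over all IDR intervals.

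No member window held any of the homeodomain core words searched. The words searched on both strands were TAATTA and its relatives TAATTG and CAATTA. One lay within 100 bp of 0 of the 9 member summits and of 209 of all 1358 IDR summits (15.4%). For so few windows 0 is near that share. The shorter word TAAT was not counted, and it is seen in the printed grd-13 and wrt-10 sequences. Its reverse complement ATTA is seen in those of grd-13 and grd-10. Other short words were searched after the sequences had been seen. GATAA, the core bound by GATA factors, on either strand, was in 5 of 9 member windows and in 38.7% of all IDR windows. TATAA, on either strand, was in 5 of 9 and in 19.6%. On the gene strand TATAA began 48 bp upstream of the annotated 5′ end in grd-13 and 28 bp upstream in grd-3, and is seen in the printed sequences as the run after the summit. In grd-10 it lay 66 bp downstream of that end. A TATAA on the gene strand beginning 20 to 60 bp upstream of a 5′ end was present at 19 of 85 members (22.4%), against 14.6% of all protein-coding genes. It was present at 12 of 31 grl genes (38.7%), 3 of 16 grd genes, 4 of 24 ptr genes and 0 of 10 wrt genes. These words are matches of letters in a window and do not show a bound site.

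The wrt genes with an IDR summit were wrt-10, wrt-3 and wrt-5. The wrt-10 and wrt-3 peaks had lower signals than the 3 grd peaks and lay in the top intervals of only 1 replicate, while at the wrt-5 peak the nearest gene was another one. The warthog proteins carry a Wart domain. The wrt-10 peak, at II:7534417-7534712, had a signal of 31.8 (rank 764), with its summit 2 bp upstream of the 5′ end. It had 12.9 in replicate 1, at rank 1483 just below the top threshold, and 20.2 in replicate 2, at rank 580. The 5′ end of ZK1290.13 is 441 bp away and the noncoding RNA gene ZK1290.21 is 5 bp away, so the peak lies between 2 protein-coding genes that point apart. The tail-to-tail neighbour of wrt-10 is wrt-1, whose strongest pooled interval had 5.21.

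The wrt-3 peak, at IV:9477476-9477771, had a signal of 26.8 (rank 1060), 168 bp upstream of the 5′ end and inside an intron of the neighbouring gene cng-3, which encodes a cyclic nucleotide-gated channel subunit. It was uneven between replicates, with 17.6 in replicate 1 (rank 835) and 6.32 in replicate 2 (rank 4850), where the overlapping interval had its summit 110 bp away. The small nucleolar RNA gene F38E11.14 is 5 bp from the summit. The wrt-5 peak, at IV:4049530-4049825, had 43.4 (rank 387), with 17.6 in replicate 1 and 24.2 in replicate 2. It lies 896 bp downstream of an internal 5′ end of wrt-5 and beyond the 3′ end of the gene, and the nearest 5′ end is that of pcn-1, the PCNA gene, 230 bp away. A pooled interval of 26.7 lay upstream of wrt-5, with 8.33 in replicate 1 and 11.03 in replicate 2, and is not an IDR peak.

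At the 1 grl gene counted, grl-10, the nearest genes were again others. The peak at V:7776170-7776465 had the highest signal of the 9, 56.1 (rank 194), with 21.2 in replicate 1 and 25.9 in replicate 2. It lies 1773 bp downstream of the grl-10 5′ end and past the end of that gene. The nearest 5′ ends are those of the ribosomal protein genes rpl-39, at 239 bp, and rps-30, at 260 bp, which point apart from the peak. The noncoding RNA genes C26F1.13 and C26F1.14 lie within 200 bp of the summit, and C26F1.13 overlaps it. The strongest pooled interval near a grl gene that is not an IDR peak had 25.4, near grl-17, with 9.25 in replicate 1 and 9.19 in replicate 2. That interval is 1518 bp upstream of grl-17 and 404 bp from the 5′ end of slrp-1.

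**Figure D3:**
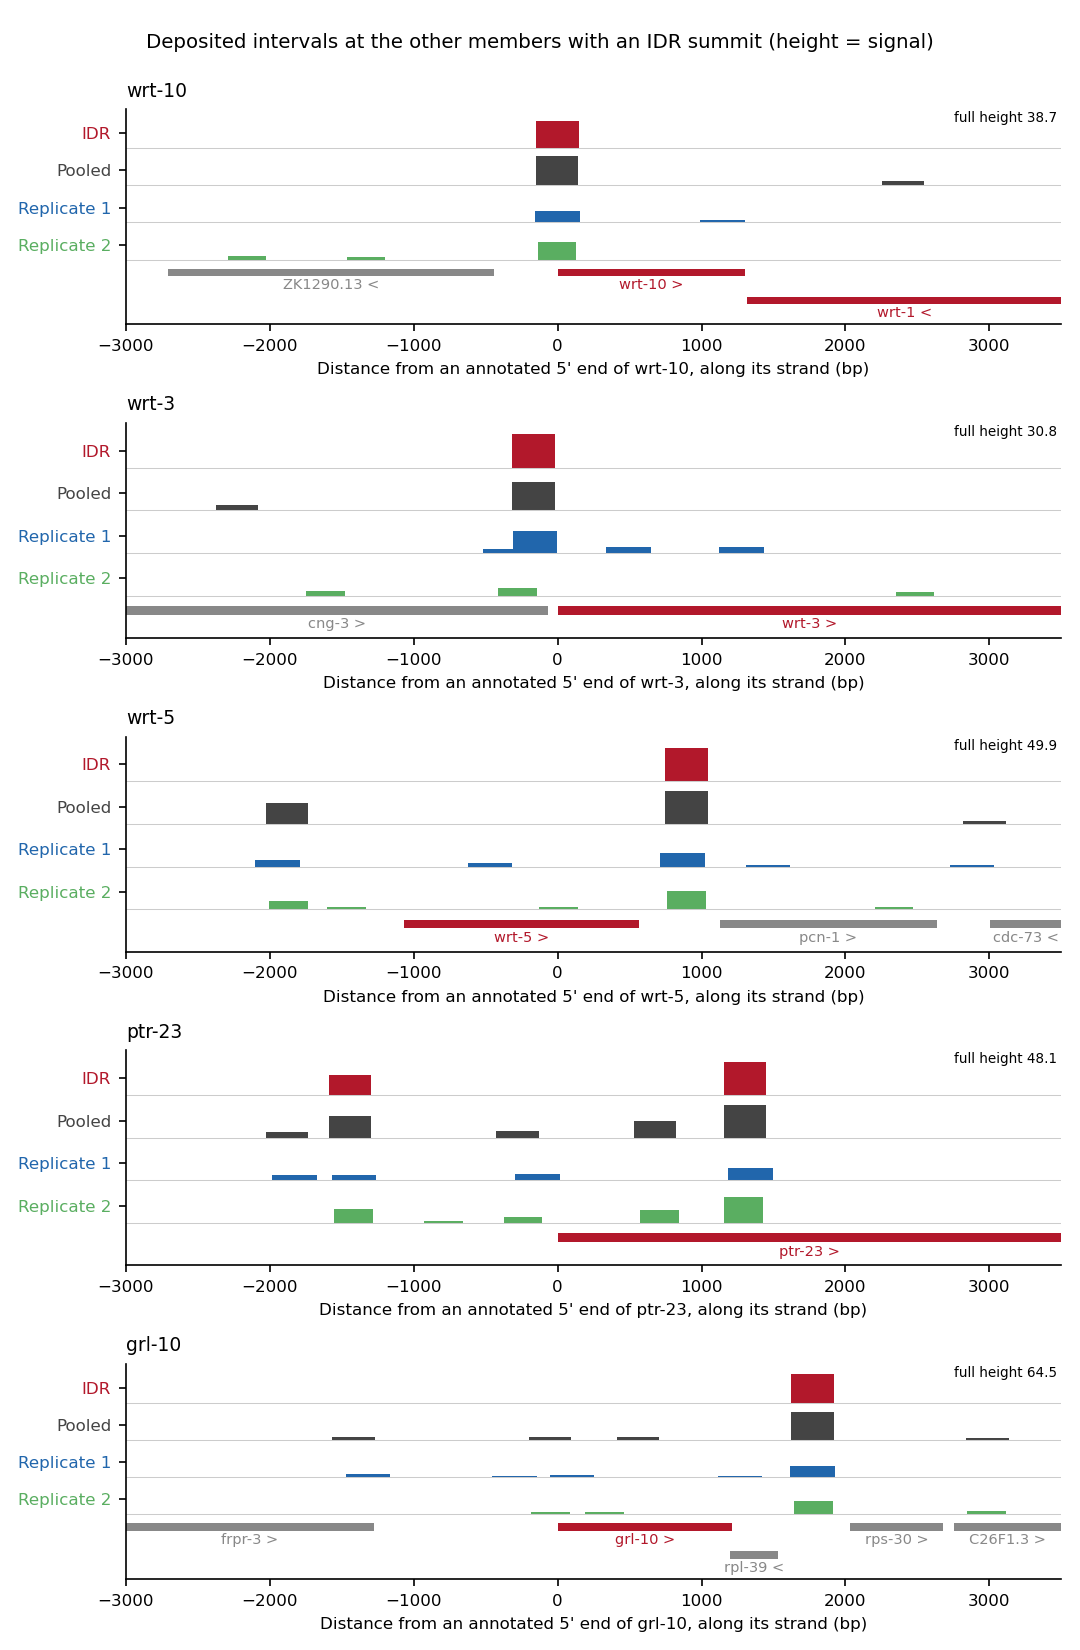
Intervals of the 4 lists at wrt-10, wrt-3, wrt-5, ptr-23 and grl-10, drawn by distance in bp from an annotated 5′ end along the gene's strand; box height is proportional to signal, on one scale within each panel, whose full height is printed. The tall boxes sit at the start of wrt-10 and wrt-3, past the 3′ ends of wrt-5 and grl-10, and upstream of and within ptr-23.

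Among the receptor-like genes only ptr-23 (WBGene00004237) had IDR summits, and it had 2. The stronger, at I:14907946-14908241, had a signal of 41.8 (rank 424), in an intron 1146 bp upstream of an internal 5′ end. It had 15.5 in replicate 1 (rank 1053) and 31.9 in replicate 2 (rank 157). The weaker, at I:14905203-14905498, had 25.0 (rank 1189), in intergenic sequence 1441 bp upstream of the first 5′ end. It had 6.46 in replicate 1 (rank 5402), outside the top intervals, and 17.6 in replicate 2 (rank 796). No other protein-coding 5′ end lay within 2000 bp of either summit. A pooled interval of 21.0 lay between them, overlapped by 15.6 in replicate 2, and is not an IDR peak. Both peaks thus ranked higher in replicate 2 than in replicate 1.

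Both patched genes had weak intervals at a distance from their starts. For ptc-1, which acts in the germ line, the strongest pooled interval had 15.6 (rank 2830) at 1191 bp upstream, with 3.26 in replicate 1 and 11.3 in replicate 2. For ptc-3, a patched gene that is needed for viability, it had 9.70 (rank 6049) at 1390 bp upstream, with 3.92 in replicate 1 and 9.23 in replicate 2. After ptr-23, the strongest ptr intervals were at ptr-11, with 17.9 pooled, 5.21 in replicate 1 and 4.71 in replicate 2, and at ptr-25, with 14.8, 5.68 and 8.24 in the same order. All these signals were below 23.2, the lowest in the IDR list. That value is not a cutoff on the pooled scale, where the wrt-3 IDR peak had 22.8.

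Most members had some interval in the relaxed lists, as did most genes. In the pooled list 67 of 85 members had one (78.8%, interval 69.0 to 86.2%), and the share over all protein-coding genes was 69.8%. In replicate 1 it was 67 members, against 68.9% of all genes, and in replicate 2 it was 66 (77.6%), against 71.4%. By family the pooled count was 12 of 16 grd, 22 of 31 grl, 9 of 10 wrt, 20 of 24 ptr and 2 of 2 ptc genes. The replicates ordered the families differently. Replicate 1 had intervals at 26 of 31 grl and 6 of 10 wrt genes, while replicate 2 had them at 19 of 31 grl and 10 of 10 wrt genes.

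The strongest pooled interval of a member was mostly weak, as it was over all genes. Its median was 7.86 over the 67 members (from 3.96 to 54.5), against 7.50 over the 13936 protein-coding genes with an interval (from 3.76 to 193.7). It was 11.4 for grd, 6.86 for grl, 8.25 for wrt, 6.71 for ptr and 12.6 for the 2 ptc genes. In replicate 1 the member median was 4.39, against 4.82 for all genes, and in replicate 2 it was 4.64, against 4.38. The members therefore lay below all genes in 1 replicate and above them in the other.

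**Figure D4:**
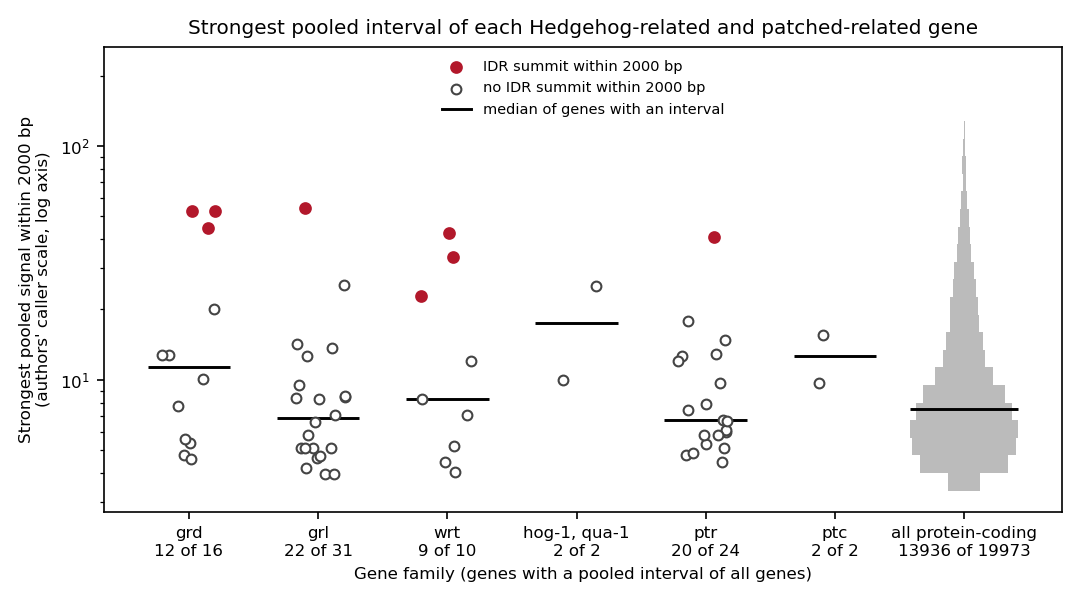
Signal of the strongest pooled interval within 2000 bp of each gene, on a log axis, by family; red points have an IDR summit, open points have none, black lines are medians, and the grey shape is the distribution over the 13936 protein-coding genes with an interval. The 8 red points stand at 22.8 or higher while most open points lie among the bulk of all genes, near its median of 7.50.

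Besides grl-17, only qua-1 among the members without an IDR summit had a top pooled interval. At qua-1 the signal was 25.1 (rank 1356) in a coding exon 1225 bp downstream of the 5′ end, with 6.33 in replicate 1 and 18.7 in replicate 2, where it ranked 690 and was a top interval. At grd-5 it was 20.1, 107 bp upstream, with 4.18 and 10.4 in replicates 1 and 2. At grl-6 it was 14.2, 1705 bp downstream, with no overlapping interval in replicate 1 and 10.6 in replicate 2, and fah-1, which encodes fumarylacetoacetate hydrolase, was nearer at 318 bp. At grl-11 it was 13.7, with 2.77 and 7.85 in replicates 1 and 2. At hog-1 the strongest pooled interval had 10.03, 276 bp upstream, with 5.52 in replicate 2 and no overlapping interval in replicate 1.

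No interval of any of the 4 lists lay within 2000 bp of 4 members, grd-8, grd-9, grl-7 and grl-12, against 2296 of the 19973 genes. All 4 are on chromosome V, which holds 32 of the 85 members and 19 of the 31 grl genes. Their nearest IDR summits were 66.2, 50.7, 32.8 and 12.9 kb away in that order. On chromosome V, 21 of 32 members had a pooled interval (65.6%), against 61.7% of the genes there. On the other chromosomes it was 46 of 53 members (86.8%), against 72.5% of the genes. Within families the same split gave 3 of 7 grd and 13 of 19 grl genes on V, and 9 of 9 grd and 9 of 12 grl genes elsewhere. For wrt it was 2 of 2 on V and 7 of 8 elsewhere, and for ptr 3 of 4 on V and 17 of 20 elsewhere. Chromosome IV held 5 of the 8 IDR members, among its 13 members (38.5%, against 6.49% of all genes there), and 3 of the 5 are the grd cluster. The X chromosome held 13 members, none with an IDR summit, against 9.34% of the genes there, and for so few members none is near that share.

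Members also lie side by side elsewhere in the genome, mostly without an IDR summit. Adjacent members form 5 runs that hold 12 genes, and 2 of the runs had an IDR summit: the grd cluster, and wrt-1 with wrt-10. The strongest pooled interval was 12.7 at grd-14 and grd-4, shared by both genes, 5.12 at grl-9 and grl-8, and 3.96 in the run of grl-29, grl-30 and grl-31.

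The IDR list selects for agreement between replicates, and the weaker intervals are set beside it here. Of the 9 member IDR peaks 6 overlapped a top interval in both replicates (66.7%), against 720 of all 1358 IDR peaks (53.0%). The exceptions were wrt-10 and the weaker ptr-23 peak, which missed the top of replicate 1, and wrt-3, which missed that of replicate 2. By the top intervals alone, 7 members were counted in replicate 1 (8.24%, against 6.48% of all genes) and 8 in replicate 2 (9.41%, against 7.15%). Replicate 1 lacked wrt-10, and replicate 2 lacked wrt-3 and added qua-1. Of the 127 pooled intervals near members, 42 overlapped an interval in both replicates (33.1%), against 30.7% of the 20799 near any protein-coding gene, and 12 overlapped none in either. Over the 52 members with an interval in both replicates, Spearman's rho of the strongest signals was 0.54 and Pearson's r of log2 signal 0.71. Over the 44 of them without an IDR summit these were 0.27 and 0.32, and over the 10811 such genes 0.51 and 0.63. Neighbouring genes can share an interval in these correlations, which describe the lists and carry no test.

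**Figure D5:**
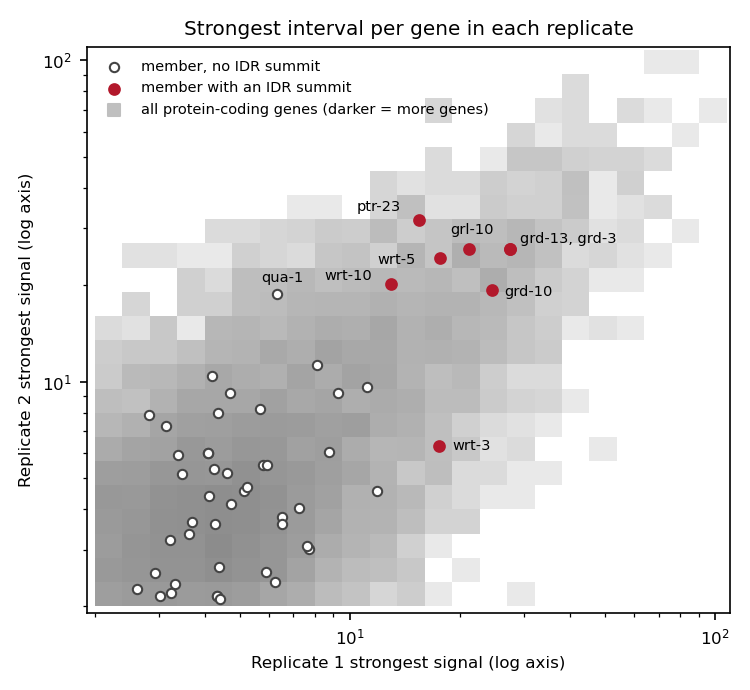
Strongest signal within 2000 bp of each gene in replicate 1 (x axis) and replicate 2 (y axis), both on log axes, for the 52 members with an interval in both, over a grey grid of the 10811 protein-coding genes with both. The 3 grd cluster genes, wrt-5, grl-10 and ptr-23 lie above the top thresholds of 13.6 and 13.3 in both replicates, wrt-10 and wrt-3 in 1 of them, and the open points reach at most 11.8 in either replicate except qua-1.

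Outside the naming rule, a pathway list of 15 genes, all annotated, was read. It holds the sterol-sensing-domain relatives of Patched and Dispatched che-14, ptd-2, daf-6, ncr-1, ncr-2 and scp-1, which need not act in a Hedgehog pathway. Also on it are the acyltransferase genes hhat-1 and hhat-2 and the uptake receptor gene lrp-1. Counterparts of downstream parts are tra-1, lin-23, kin-1, kin-2, gsk-3 and kin-19. An IDR summit lay within 2000 bp of 0 of the 15, against 6.81% of all protein-coding genes, and for so few genes 0 is near that share. A pooled interval lay near 14 (93.3%), against 69.8% of all genes, with a median of 9.14 for the strongest (from 3.91 to 21.4), against 7.50 over all genes. For che-14, a Dispatched-like gene of apical secretion, it was 15.2, 145 bp downstream of the 5′ end. For tra-1, the GLI-family gene that directs sexual fate, it was 8.49, 739 bp downstream. A top interval lay at 1 of the 15 in replicate 1 (against 6.48% of all genes) and at 0 in replicate 2 (7.15%). For so few genes both counts are near those shares. The 1 gene was kin-1, the catalytic subunit gene of protein kinase A.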

How the data were processed

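CEH-16 was measured by ChIP-seq in 2 biological replicates of 1 group. The authors deposited peak lists and no counts. Per the file headers, the relaxed lists derive from alignments and a control alignment, and the IDR list from the pooled and replicate lists. The signal of each interval was deposited on the scale of the authors' peak caller. Other columns deposited are the −log10 q-value, which is 1 value for all IDR peaks and was not used, and the summit as an offset from the interval start. Which aligner, peak caller and IDR threshold were used is not given in the sources used here. Depth is therefore unknown.

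Positions are 1-based on ce11 (WBcel235), the build also of the Ensembl release 115 annotation and the RefSeq genome used for sequence. The ce10 lists were not used. Many worm transcripts are trans-spliced, so an annotated 5′ end need not be the site of initiation. Overlap means at least 1 bp. Counts, shares with 95% Wilson intervals, medians, alignments and letter matches were computed with Python 3.11.15, pandas 2.3.3, SciPy 1.17.1 and Biopython 1.88, and the counting was tested on simulated data. The alternatives were narrower windows, nearest-gene assignment, stricter lists, another overlap and each replicate alone.

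The members, the pathway list and the rule for named genes were chosen with earlier results of these data known. The rule names every member with an IDR summit, the 3 clustered grd genes, ptc-1, ptc-3, hog-1, qua-1, the 8 strongest members without an IDR summit, the strongest of each family, members with no interval, tra-1 and che-14. The other members and neighbours named, the words GATAA as well as TATAA with its upstream window were chosen after their values were seen.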

Additional observations from a re-analysis of the deposited data

How the results depend on the processing

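The grd count of 3 and the 3 cluster summits held under every alternative run. The members with an IDR summit, 8 as reported, numbered 5 with a 500 bp window. With 1 replicate left out there is no IDR list, and the top intervals of the other replicate gave 7 to 8 members: without replicate 1 qua-1 came in and wrt-3 was lost, and without replicate 2 wrt-10 was lost. The 1 grl gene became 0 with windows of 1000 and 500 bp and with nearest-gene assignment, and 2 with the top pooled intervals. The 1 ptr gene became 0 with windows of 1000 and 500 bp, and the 3 wrt genes became 1 among IDR peaks at or above the median signal. The share of all genes, 6.81%, was 3.62% with a 500 bp window, 4.41% with nearest-gene assignment and 3.55% among IDR peaks at or above the median signal. Members with a pooled interval, 67 as reported, numbered 36 with a 500 bp window and 42 at or above the list's median signal. The median strongest signal, 7.86, was 7.10 with a 1000 bp window and 7.27 with a 500 bp window or nearest-gene assignment. With 1 replicate left out it was 4.39 to 4.64, on the signal of the replicate lists and not on that of the pooled list. The other 42 of 60 alternative values, over 10 results, stayed within 1.5 times the reported count or within the replicate spread. No paired analysis was possible because there is 1 group.

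Depth limits are unknown, since the lists hold no counts. With 85 members in families of 1 to 31 genes, the Wilson intervals are wide, and 2 replicates give little information on variation between cultures. The relaxed lists reach down to weak intervals and reach most genes, so the presence of a weak interval is not evidence of recovery of the tagged protein. Adjacent genes share summits, so the members are not independent of one another.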

Other observations

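Further members had IDR summits beyond the 2000 bp window. The nearest was 2854 bp from a 5′ end of grl-13, 3569 bp from wrt-1, 4287 bp from grd-7 and 4837 bp from ptr-13. For wrt-1 it is the wrt-10 summit already counted. Thus 4 of 85 members (4.71%) had one between 2 and 5 kb, against 5.55% of all protein-coding genes. The median distance from a member to the nearest IDR summit was 23.8 kb, against 35.2 kb over all genes. An IDR summit also lay inside ptr-12, 7576 bp from its 5′ end. The choice of these genes followed from their values.

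Among the 138 pairs of a member and a pooled interval, 52.2% of the summits were upstream of the 5′ end, against 54.6% over all genes, and 30.4% lay within 500 bp, against 32.8%.

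Of the genes on the pathway list, the casein kinase gene kin-19 had the strongest pooled interval, 21.4 at 1160 bp upstream. It had 8.57 in replicate 1 and 5.999 in replicate 2. At kin-1 it was 21.2, at lin-23, an F-box gene, 15.9, and at lrp-1, the megalin-like gene that acts in molting, 12.6. No pooled interval lay near hhat-1.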
